A study of Mus musculus with 18 samples.

Results

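The conjugation enzymes described here are the glutathione transferases (GST), the UDP-glycosyltransferases (UGT, most of them glucuronosyltransferases) and the cytosolic sulfotransferases (SULT) of mouse kidney. Members were the rows of the raw count table whose symbol follows the naming of these families and which held 10 or more counts in 3 or more of the 18 libraries. Of 53 symbols with such names, 43 met this rule: 17 GST, 16 UGT and 10 SULT, out of 31787 gene symbols in the table. Of the 43, 42 also passed the expression filter of the test; Sult2a3, a hydroxysteroid sulfotransferase with at most 48 counts in a library, did not. The 10 symbols below the minimum were Gstm3, Gstt4, Sult1c1, Sult2a4, Sult2a6, Sult2a7, Ugt2a1, Ugt2b1, Ugt2b35 and Ugt2b36. Members were kept because they reached the minimum in any 3 libraries, so a gene present in one kind of kidney and near 0 in the other is a member through the kidneys where it is high.

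Conjugation makes reactive or fat-soluble molecules easier to excrete. GSTs join them to the tripeptide glutathione, UGTs join them to a sugar, usually glucuronic acid taken from UDP-glucuronate, and SULTs join them to a sulfate group taken from the donor PAPS. In the kidney these enzymes are best known from the proximal tubule, the nephron segment that also takes up and secretes drugs, steroids and their conjugates and breaks glutathione conjugates down toward mercapturates.

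Many members lie in gene clusters. In the mm10 build with GENCODE M21 positions, the mu-class Gstm genes lie together on chromosome 3, Gstt1, Gstt2 and Gstt3 on chromosome 10 and all Ugt1a genes on chromosome 1. Ugt2b genes and Sult1b1, Sult1d1 and Sult1e1 lie on chromosome 5. The genes with the highest mean length-scaled RNA in healthy kidneys were Sult1d1 (chr5:87554645-87569027, minus strand), Ugt3a2 (chr15:9335550-9370955, plus strand) and Gsta2 (chr9:78331018-78355788, minus strand), by family, each protein-coding.

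RNA of whole kidney was sequenced in 6 groups of 3 libraries. Mice of 3 groups carried a conditional knockout (cKO), with Cre and 2 floxed alleles, and their kidneys had undergone unilateral ureteral obstruction (UUO, tying off of a ureter, after which the kidney upstream becomes fibrotic). These were Twist cKO UUO and Snail cKO UUO, in which Cdh5-CreERT2 (a tamoxifen-activated Cre under an endothelial promoter) acts in endothelial cells, and Myc cKO UUO, in which GGT-Cre acts in tubular epithelium. The other groups were WT UUO, contralateral kidneys (opposite an obstructed one) and healthy kidneys. Per the labels, replicates 1 and 2 of WT UUO and of contralateral carried Cdh5-CreERT2 with unfloxed Twist and replicate 3 was Cre-negative with floxed Twist, and all healthy kidneys were Cre-negative with floxed Twist, so each of these controls came from the Twist line. Twist-line mice were on a mixed background of Balb/c, C57BL6 and 129sv; those of the Snail line and of the Myc line were on one of Balb/c and C57BL6, so line and knockout cannot be told apart for Snail and Myc. Endpoint age was 12 weeks, and 11 to 12 weeks for Myc cKO UUO. The labels do not tie kidneys to animals. By the sex read from the counts and the labelled Cre genotype, no group came from 1 animal alone, and p-values here cover the spread between the sampled kidneys. Whether a contralateral and an obstructed kidney shared an animal is not given in the sources used here.

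Library totals ran from 52.6 to 91.3 M counts, of which the mitochondrial ribosomal RNAs took 23.7 to 34.9% in the knockouts, 19.2 to 20.3% in WT UUO and 44.6 to 50.3% in contralateral and healthy kidneys. As a check of the labels, Twist1 lay at 0.378, 0.596 and 0.307 CPM (counts per M counted reads) in Twist cKO UUO and at 2.13, 4.49 and 1.14 CPM in WT UUO, a called fall (log2 fold change -2.59 ± 0.49 SE, edgeR adjusted p = 0.0172). Snai1 in Snail cKO UUO (-0.61, adjusted p = 0.487) and Myc in Myc cKO UUO (-0.45, adjusted p = 0.217) did not pass the test against WT UUO in whole kidney. A gene is called here at an adjusted p under 0.05 over the 21050 genes tested, levels are CPM scaled by TMM, log2 fold changes come with their SE, and each group has n = 3. In whole-kidney RNA, fewer cells of a type and less RNA per cell cannot be told apart. The proximal tubule markers (13 genes) summed to 711 to 2785 CPM in WT UUO, against 16068 to 31370 CPM in contralateral and 16639 to 35920 CPM in healthy kidneys, and 12 of the 13 were lower in WT UUO than in healthy kidneys. Markers of loop and distal tubule (5 of 5, median log2 fold change -3.32) and of collecting duct (4 of 5, median -1.46) were lower there too. The part of these markers in the falls described below was not tested. Markers of liver (6 genes), another site of these enzymes, summed to 2.06 to 3.78 CPM in WT UUO, with Cyp3a11 and Cyp2c29 at 0, and to 37.6 to 137 CPM in healthy kidneys.

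Obstruction went with lower levels of most conjugation enzyme genes. Against healthy kidneys, 22 of the 42 members tested were lower in WT UUO and 6 were higher, where 27.1% of all genes tested were called lower and 29.2% higher; the median log2 fold change was -1.14 over the members and 0.05 over all genes. The lower members were 10 of 17 GST, 8 of 16 UGT and 4 of 9 SULT, and the higher ones 2 GST, no UGT and 4 SULT. Against contralateral kidneys 22 were lower and 5 higher, where 26.0% and 27.5% of all genes were called, with a median of -1.67 over the members; both comparisons use the same WT UUO libraries. Without mitochondrially encoded genes, whose share differed between these groups, 21 members were lower and 6 higher than in healthy kidneys. Summed over members and scaled by exon length (CPM per kb), the GST family stood at 259 ± 132 in WT UUO, 529 ± 84.2 in contralateral and 575 ± 115 in healthy kidneys (SD). The UGT sums were 72.4 ± 38.1, 546 ± 223 and 765 ± 446 in the same order of groups, and the SULT sums 81.9 ± 6.92, 383 ± 31.8 and 514 ± 119. The UGT and SULT sums of WT UUO libraries lay below those of every unobstructed library, and so did the GST sums (409, 201 and 166 in WT UUO against a lowest of 434 in contralateral and 463 in healthy kidneys).

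**Figure D1:**
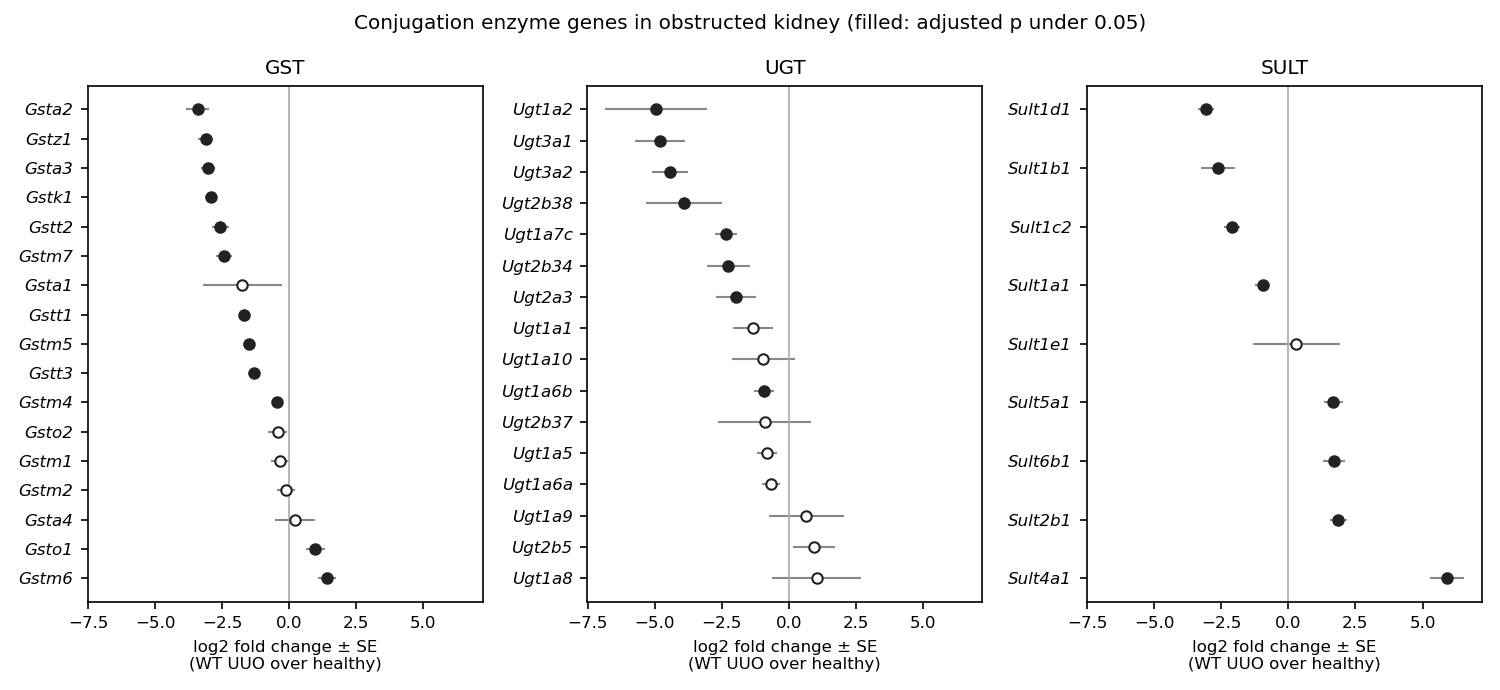
Log2 fold changes ± SE (horizontal axis) of the 42 tested members in WT UUO over healthy kidneys, in 1 panel per family; filled points have an edgeR adjusted p under 0.05. The 22 filled points left of 0 are 10 GST, 8 UGT and 4 SULT, and the 6 filled points right of 0 are Gstm6, Gsto1 and 4 SULT; the fitted value of Sult4a1 rests on near-zero counts in healthy kidneys.

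Among the GSTs, the falls were found in the alpha, kappa, mu, theta and zeta classes. Gsta2, an alpha-class enzyme, was at 13.6 ± 2.16 CPM per kb in WT UUO, where Gstm1, Gsta4 and Gsto1 led the family, and at 144 ± 65.7 CPM per kb in healthy kidneys, the highest mean of the family there, followed by Gstm1 and Gstm5. This order rests on annotated exon length, which is 1177 bases for Gsta2 and 5088 for Gstz1. By CPM without that scaling, Gstz1 had a higher mean in healthy kidneys (214) than Gstm1 (179) and Gsta2 (169). Per library, Gsta2 was at 14.2, 14.8 and 18.9 CPM in WT UUO and 223, 80.5 and 204 CPM in healthy kidneys, a log2 fold change of -3.41 ± 0.43 (adjusted p = 9.36e-06). The groups did not overlap, and the healthy and contralateral replicates 2 (80.5 and 61.4 CPM) lay well below the other unobstructed libraries. Gstz1, the maleylacetoacetate isomerase of tyrosine breakdown, was at 19.1, 29.6 and 25.0 CPM in WT UUO and at 221, 251 and 170 CPM in healthy kidneys (-3.12 ± 0.27, adjusted p = 3.27e-07). Gsta3, known in mice for conjugating the aflatoxin epoxide, was at 12.4, 11.3 and 7.62 CPM in WT UUO and at 103, 63.3 and 86.8 CPM in healthy kidneys (-3.02 ± 0.26, adjusted p = 3.53e-07). Gstk1, the kappa-class enzyme of mitochondria and peroxisomes, had the smallest p of the GSTs: 4.68, 5.91 and 6.31 CPM in WT UUO against 50.7, 37.8 and 40.7 CPM in healthy kidneys (-2.93 ± 0.20, adjusted p = 4.1e-08). For Gstz1, Gsta3 and Gstk1 every WT UUO library lay below every unobstructed library. The theta-class genes Gstt2 (-2.56), Gstt1 (-1.68) and Gstt3 (-1.32) and the mu-class genes Gstm7 (-2.42), Gstm5 (-1.51) and Gstm4 (-0.44) were lower too. Gstm4 was near the threshold (adjusted p = 0.0496) and was not called in 4 of the 6 fits that left out a WT UUO or healthy library, with an adjusted p of up to 0.175.

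Against this direction, 2 GSTs were higher in WT UUO than in healthy kidneys. Gstm6, a mu-class gene of low level, lay at 0.875, 1.30 and 0.574 CPM in WT UUO and at 0.387, 0.246 and 0.388 CPM in healthy kidneys (1.42 ± 0.33, adjusted p = 0.00198); in contralateral kidneys it was at 0.854, 0.669 and 0.788 CPM, within the range of WT UUO (0.25 ± 0.32, adjusted p = 0.537). Gsto1, the omega-class enzyme that reduces glutathione mixed disulfides and dehydroascorbate, was at 106, 40.8 and 49.7 CPM in WT UUO and at 45.1, 20.2 and 34.4 CPM in healthy kidneys (0.98 ± 0.35, adjusted p = 0.0274). That call was lost in 3 of the 6 fits that left out a library: without WT UUO replicate 1 the difference was 0.45 (adjusted p = 0.244), without healthy replicate 2 it was 0.72 (adjusted p = 0.115) and without healthy replicate 3 the adjusted p was 0.0566. Gsta4, which clears the lipid peroxidation product hydroxynonenal, and Gstm1 had the same high library, at 147 CPM against 23.99 and 18.1 CPM for Gsta4 and at 241 CPM against 107 and 69.6 CPM for Gstm1 in the other WT UUO libraries. Neither was called against healthy kidneys (Gsta4 0.20 ± 0.74, adjusted p = 0.834; Gstm1 -0.36 ± 0.34, adjusted p = 0.386). The same library stood out for the urothelium markers (5 genes), which summed to 334 CPM there, to 71.4 and 23.2 CPM in the other WT UUO libraries and to 0.468 to 3.30 CPM in healthy kidneys. It was also the highest WT UUO library for adipocyte markers (185 CPM, against 95.4 and 40.6 CPM) and for those of endothelium and fibroblasts. For proximal tubule markers it was the lowest (711 CPM, against 2785 and 1613 CPM). The part of any of these markers in the levels of Gsto1, Gsta4 and Gstm1 was not tested. Gstm2, Gsto2 and Gsta1 were also not called, and Gsta1 had 0 to 56 counts in a library and shares most of its exon sequence with the gene Gm3776, so its counts are uncertain.

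**Figure D2:**
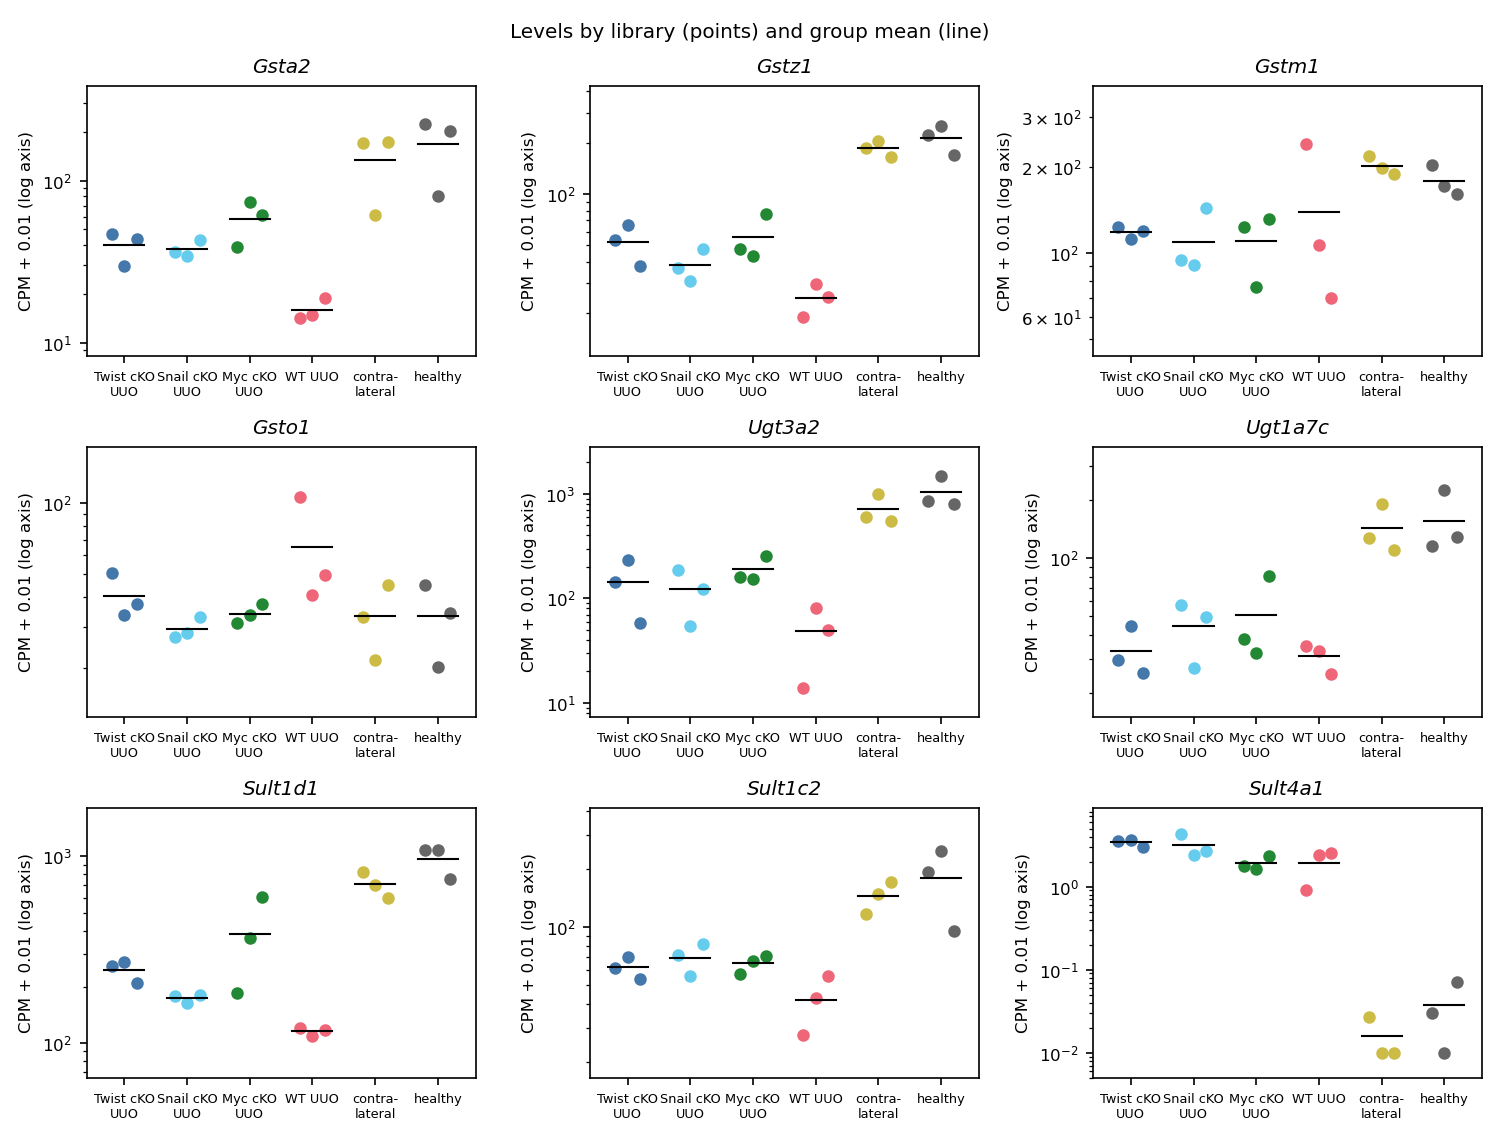
CPM plus 0.01 on a log axis (vertical) for 9 members in each library, with the 6 groups along the horizontal axis; points are libraries and lines are group means. For Gsta2, Gstz1, Ugt3a2 and Sult1d1 the WT UUO points lie below all unobstructed points, the first WT UUO point stands high for Gstm1 and Gsto1, and Sult4a1 is at 0.91 CPM or more in every obstructed library and at 0.062 CPM or less in every unobstructed one.

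No UGT was called higher in WT UUO. By the mean of the 3 healthy libraries, the largest pool was Ugt3a2 (336 ± 123 CPM per kb). It is a member of the small family whose human counterparts use sugars other than glucuronic acid. Ugt2b38 came next (193 ± 289 CPM per kb) and was at 40.4, 994 and 58.0 CPM, so the order of these genes differed between libraries. Ugt3a2 was at 13.8, 81.3 and 49.7 CPM in WT UUO, against 595, 1001 and 549 CPM in contralateral and 846, 1482 and 803 CPM in healthy kidneys (-4.44 ± 0.68 against healthy, adjusted p = 6.18e-05). Its neighbour Ugt3a1 was at 0.816, 9.79 and 5.60 CPM in WT UUO and at 119, 236 and 94.7 CPM in healthy kidneys (-4.79 ± 0.93, adjusted p = 0.00047). For both genes the lowest unobstructed library lay above the highest WT UUO library, and replicate 2 was the highest library in each of these groups. Ugt1a7c, of the Ugt1a locus, was at 34.9, 32.7 and 24.9 CPM in WT UUO and at 115, 226 and 128 CPM in healthy kidneys (-2.34 ± 0.40, adjusted p = 0.000152). These 3 calls held in each of the 6 fits that left out 1 library. Of Ugt2b34 (-2.26, adjusted p = 0.027), Ugt2b38 (-3.91, adjusted p = 0.0293), Ugt2a3 (-1.98, adjusted p = 0.0336), Ugt1a2 (-4.94, adjusted p = 0.0391) and Ugt1a6b (-0.92, adjusted p = 0.041), each was lost in 3 or more of those 6 fits, with adjusted p of up to 0.487 for Ugt2b38 without healthy replicate 2. Ugt1a1, the bilirubin glucuronosyltransferase, was at 0.922, 0.212 and 0.843 CPM in WT UUO and at 2.24, 0.533 and 2.19 CPM in healthy kidneys and was not called (-1.32 ± 0.75, adjusted p = 0.147).

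Of the SULTs, Sult1d1 made up most of the family in every group: 57.4% of the length-scaled sum in WT UUO, 75.4% in contralateral and 76.8% in healthy kidneys. Sult1d1 is the mouse enzyme for catecholamines and other amines. It was at 121, 108 and 118 CPM in WT UUO, against 827, 706 and 599 CPM in contralateral and 1076, 1081 and 757 CPM in healthy kidneys, which is 8.41-fold lower than in healthy kidneys (-3.07 ± 0.31, adjusted p = 1.15e-06). Sult1c2 was at 27.5, 42.8 and 56.0 CPM in WT UUO and at 195, 249 and 96.2 CPM in healthy kidneys (-2.10 ± 0.31, adjusted p = 4.08e-05). For both genes WT UUO and healthy kidneys did not overlap, with the narrowest gap for Sult1c2. Sult1b1, known for thyroid hormones, was at 0.638, 2.36 and 0.868 CPM in WT UUO and at 6.73, 12.1 and 5.01 CPM in healthy kidneys (-2.63 ± 0.64, adjusted p = 0.00286). Sult1a1, the main phenol sulfotransferase, moved less, at 16.7, 12.9 and 12.7 CPM in WT UUO and 35.1, 24.7 and 22.6 CPM in healthy kidneys (-0.96 ± 0.30, adjusted p = 0.0119), and against contralateral kidneys it was not called (-0.36 ± 0.29, adjusted p = 0.327).

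The 4 SULTs that were higher all had low levels. Sult4a1, best known from brain and without a settled substrate, had 77, 190 and 204 counts in the WT UUO libraries, against 1, 0 and 0 counts in contralateral and 1, 0 and 4 counts in healthy kidneys (adjusted p = 1.65e-06 against healthy). The other obstructed groups held it as well, at 126 to 362 counts in each of their libraries, and no library of one kind overlapped the other; it is a member through the obstructed kidneys. Markers of injured tubule (6 of 6), fibroblasts (5 of 5) and macrophages (4 of 4) were higher in WT UUO as well, and their part in these rises was not tested. Sult2b1, which sulfates cholesterol and related sterols, was at 0.851, 1.45 and 1.39 CPM in WT UUO and at 0.285, 0.471 and 0.264 CPM in healthy kidneys (1.86 ± 0.32, adjusted p = 0.000139). Sult5a1 was at 2.72, 2.11 and 4.57 CPM in WT UUO and at 0.915, 0.533 and 1.47 CPM in healthy kidneys (1.68 ± 0.35, adjusted p = 0.000859). Sult6b1 was at 1.15, 0.923 and 1.20 CPM in WT UUO and at 0.387, 0.410 and 0.202 CPM in healthy kidneys (1.72 ± 0.41, adjusted p = 0.00218). All 4 were higher against contralateral kidneys too. Sult1e1, the oestrogen sulfotransferase, had 0 to 13 counts in a library and was called in no comparison. Sult2a3, not tested, had 48, 36 and 12 counts in contralateral libraries, 6, 6 and 9 in healthy ones and 0 to 5 in obstructed ones.

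Upstream sequence is shown for Gsta3 and Gstm5, both lower in WT UUO, because they are the members that hold the antioxidant response element TGACNNNGC, the sequence bound by NRF2 (in capitals, either strand), within 250 bases before the RefSeq start. Coordinates are GRCm38.p6, at chr1:21240335-21240584, plus strand, and chr3:107895604-107895853, plus strand.
Gsta3: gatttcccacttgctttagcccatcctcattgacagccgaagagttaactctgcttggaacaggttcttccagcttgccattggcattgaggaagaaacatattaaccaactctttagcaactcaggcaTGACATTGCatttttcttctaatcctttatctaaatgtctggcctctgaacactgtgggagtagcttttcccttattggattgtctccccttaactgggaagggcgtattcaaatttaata
Gstm5: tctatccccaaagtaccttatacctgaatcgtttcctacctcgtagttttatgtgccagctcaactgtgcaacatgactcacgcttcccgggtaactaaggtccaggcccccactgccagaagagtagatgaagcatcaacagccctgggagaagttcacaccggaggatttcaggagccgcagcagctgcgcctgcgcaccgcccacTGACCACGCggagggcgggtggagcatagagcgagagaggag
RefSeq held a promoter for 38 of the 43 members. The antioxidant response element TGACNNNGC was found in these 2 of the 38 and in 10.1% of all 27025 promoters of the same length, and the xenobiotic response element core GCGTG in 6 (28.2% of all). The HNF4 sequence CAAAGTCCA was in none of the 38 and in 0.381% of all promoters. These sequences were searched on both strands, and a match, or the lack of one, describes letters only. Among the regulator genes tested (14), 7 were lower and 2 higher in WT UUO than in healthy kidneys, with Hnf4a (-2.52, adjusted p = 1.36e-05) among the lower and the aryl hydrocarbon receptor Ahr (1.55, adjusted p = 0.000115) and the NRF2 competitor Bach1 (0.27, adjusted p = 0.00976) higher. In that comparison 27.1% of all genes were called lower and 29.2% higher.

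The pathways that feed conjugation and clear its products were lower in part. Of all genes tested, 27.1% were called lower and 29.2% higher in WT UUO than in healthy kidneys. In WT UUO against healthy kidneys, 10 of 14 genes of glutathione synthesis and recycling were lower and 3 higher, including Anpep (-1.92, adjusted p = 3.07e-07), the peptidase that splits cysteinylglycine, and the cystine importer Slc7a11 (4.33, adjusted p = 0.000152). Of the mercapturate pathway 6 of 7 were lower, Acy1 by the most of those named (-4.16, adjusted p = 5.19e-07), and 1, the glutamyltransferase Ggt5, was higher (1.08, adjusted p = 0.00109). Of the list of UDP-glucuronate supply 6 of 8 were lower and 1 higher. Ugp2, which makes UDP-glucose, fell (-1.32, adjusted p = 5.72e-07), as did Miox (-5.14, adjusted p = 3.64e-06). Miox oxidises inositol to free glucuronate, not to UDP-glucuronate, and is also among the proximal tubule markers. Of PAPS and sulfate supply 6 of 9 were lower and none higher, with the PAPS synthase Papss2 at -2.99 (adjusted p = 1.22e-06) and the sulfate transporter Slc26a1 at -2.27 (adjusted p = 2.89e-06). Each of these 4 pathways had more called members lower than higher, but the lists share genes and are not independent. Anpep is in both the glutathione and the mercapturate list, and Slc7a11 and G6pdx are in both the glutathione list and that of NRF2 targets. Of the transporters of conjugates 5 of 9 were lower, among them the exporters Abcg2 (-2.43, adjusted p = 2.11e-06) and Abcc2 (-2.74, adjusted p = 1.43e-05), and 1, Abcc1, was higher (0.75, adjusted p = 0.00358). Glutathione transferases outside the naming rule, mostly membrane-bound, went the other way in part: 3 of 6 were higher, including Hpgds, the prostaglandin D synthase (2.32, adjusted p = 2.25e-07), and Mgst2 (3.57, adjusted p = 0.00113), and 1, Mgst3, was lower (-1.41, adjusted p = 2.12e-05). Of 10 NRF2 target enzymes, 5 were lower, among them Gclm (-1.84, adjusted p = 2.27e-06) and Osgin1 (-2.45, adjusted p = 2.71e-06), and 3 were higher.

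Between contralateral and healthy kidneys, 0 of 42 members were called by edgeR, where 1.96% of all genes were called higher and 0.299% lower. With so few genes called, this count does not set the members apart from other genes. For some members the libraries of these groups did not overlap, such as Gstm6 and Sult1a1. Sult1a1 was at 17.9, 16.0 and 20.2 CPM in contralateral and at 35.1, 24.7 and 22.6 CPM in healthy kidneys. At an unadjusted p under 0.05 there was 1 of 42 members, beside 3664 of all 21050 genes. This was Gstm6 (1.17 ± 0.34, adjusted p = 0.0803), which DESeq2 called (adjusted p = 0.033), as it did 7.93% of the genes it tested. The median log2 fold change over the members was -0.08.

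Several UGT levels split within each group by the sex of the animal, read from the counts as Ddx3y (on the Y chromosome) above Xist (made from the inactive X) or the reverse, since the labels used here give no sex. Libraries with Ddx3y above Xist numbered 2 of 3 in the Snail and the Myc knockouts and 1 of 3 in Twist cKO UUO, WT UUO, contralateral and healthy kidneys. In all 6 groups these libraries were higher than every other library of the group for 6 of 42 members (Ugt2b37, Ugt2b38, Ugt3a1, Ugt3a2, Gstz1 and Sult1b1), where 2.86% of all genes did so, and lower for 1 member (Ugt2b34), where 0.808% did so. With 1 library on one side in every group this is given as a description, with no test of sex. Ugt2b38 was at 994 CPM in the Ddx3y library and at 40.4 and 58.0 CPM in the Xist libraries of healthy kidneys, and at 54.6 CPM against 6.98 and 11.0 CPM in WT UUO. Its close relative Ugt2b37 was at 222 CPM against 2.89 and 0.992 CPM in healthy kidneys and at 79.8 CPM against 24.9 and 15.8 CPM in WT UUO. Over the 12 obstructed libraries, Ugt2b37 ranged over 40.5 to 125 CPM in Ddx3y libraries and 12.1 to 31.4 CPM in Xist libraries, while over the unobstructed ones the ranges were 148 to 222 CPM and 0.992 to 2.89 CPM. In Xist libraries Ugt2b37 was thus higher in every obstructed kidney than in any unobstructed one, and in Ddx3y libraries lower. Ugt2b34 ran the other way, at 28.8 CPM in the Ddx3y library and 71.2 and 77.0 CPM in the Xist libraries of healthy kidneys, and at 4.67 CPM against 20.5 and 11.8 CPM in WT UUO. Ugt1a2 was at 2.74 CPM against 269 and 242 CPM in healthy kidneys and at 1.12 CPM against 4.29 and 11.3 CPM in WT UUO, but Myc cKO UUO replicate 3, a Ddx3y library, held 49.2 CPM beside 2.15 CPM in the other Ddx3y library and 45.3 CPM in the Xist library of that group.

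With the sex reading as a covariate, the fall of Ugt2b38 in WT UUO against healthy kidneys was -3.26 (adjusted p = 0.00024), that of Ugt2b34 -2.35 (adjusted p = 3e-05) and that of Ugt1a2 -4.28 (adjusted p = 0.011). Ugt1a1 was then called lower (-1.32, adjusted p = 0.025) and Ugt2b5 higher (1.33, adjusted p = 0.045), while Ugt2b37 was not called (0.90, adjusted p = 0.55). That fit takes the change with obstruction to be the same in Ddx3y and Xist libraries. Ugt2b37 moved in opposite directions in these libraries, so its value of 0.90 describes neither. Reads can be shared here: of 75-base stretches of exon, 93.6% were unique to Ugt2b37, 72.0% to Ugt2b38 and 69.6% to Ugt2b5, which shares most with Ugt2b38.

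**Figure D3:**
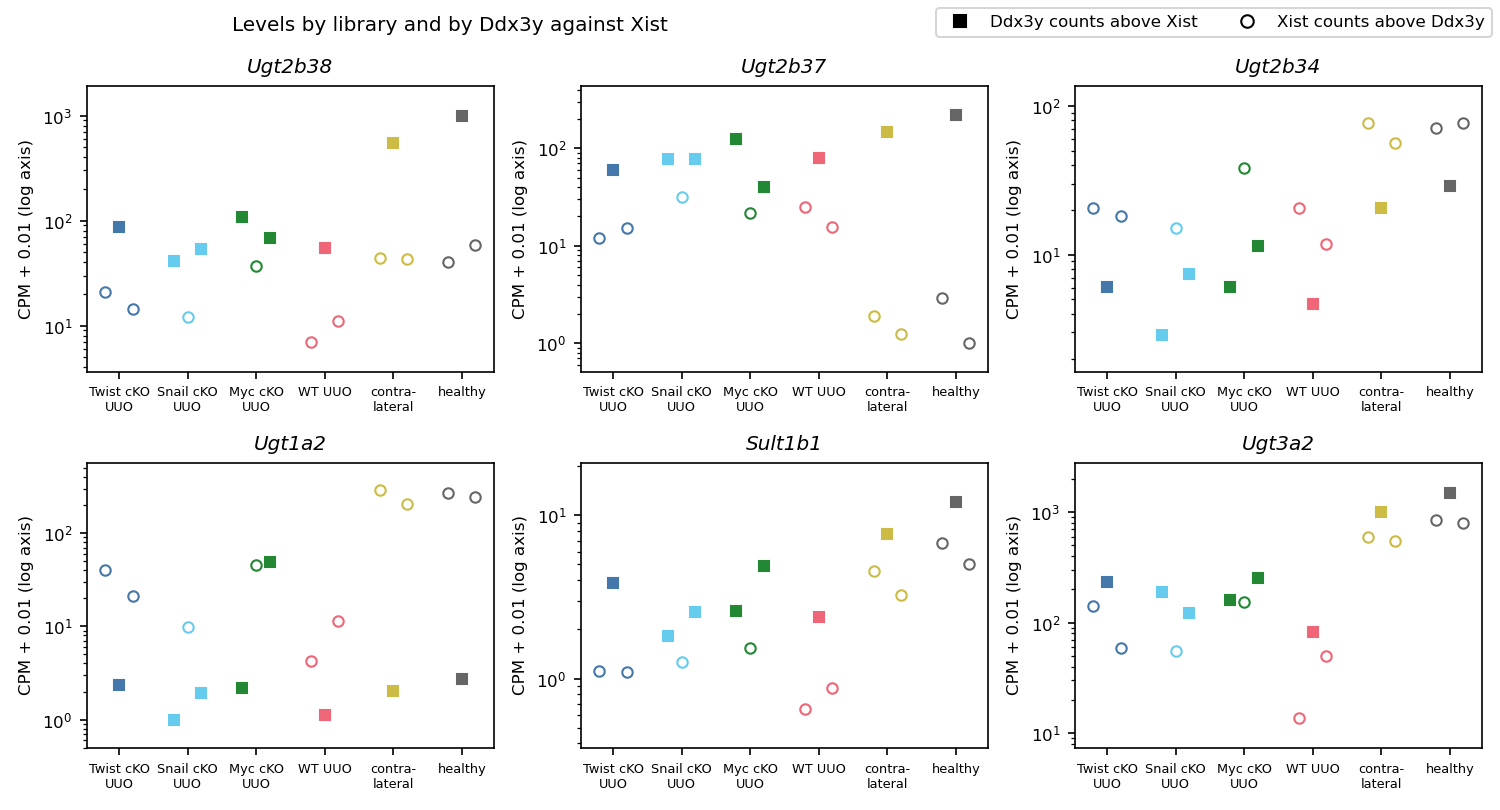
CPM plus 0.01 on a log axis (vertical) for 6 members by group; filled squares are libraries with Ddx3y counts above Xist counts and open circles the reverse. In healthy kidneys the square lies at 994 CPM for Ugt2b38 and at 222 CPM for Ugt2b37, above both circles, and at 28.8 CPM for Ugt2b34, below both circles.

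The sequences before the starts of Ugt2b37 and Ugt2b38 are shown because both genes were high in Ddx3y libraries. Over 236 aligned bases they were 94.9% identical, and capitals mark the 12 that differ. Coordinates are GRCm38.p6 with RefSeq starts, at chr5:87254789-87255038, minus strand, and chr5:87424204-87424453, minus strand.
Ugt2b37: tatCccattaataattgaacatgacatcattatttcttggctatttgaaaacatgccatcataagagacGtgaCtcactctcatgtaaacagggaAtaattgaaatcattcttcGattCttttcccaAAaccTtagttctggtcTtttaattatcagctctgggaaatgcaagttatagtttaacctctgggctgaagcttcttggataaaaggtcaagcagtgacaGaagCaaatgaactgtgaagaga
Ugt2b38: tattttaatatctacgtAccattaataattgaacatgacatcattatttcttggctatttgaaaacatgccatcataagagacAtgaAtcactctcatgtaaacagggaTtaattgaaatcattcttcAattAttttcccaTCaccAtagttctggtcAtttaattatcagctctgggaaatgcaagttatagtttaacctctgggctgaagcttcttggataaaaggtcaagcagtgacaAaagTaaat

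The Ugt1a genes lie in 1 locus on chromosome 1, each with its own first exon joined to shared later exons, so only 25.2 to 48.8% of their exon stretches are unique and how reads of the shared exons were counted is not given in the sources used here. Ugt1a10, Ugt1a9 and Ugt1a8 differed widely between libraries of the same group. Ugt1a10 was at 18.6, 23.7 and 18.2 CPM in Twist cKO UUO, at 3.84, 6.69 and 2.74 CPM in Snail cKO UUO and at 13.0, 27.6 and 10.2 CPM in Myc cKO UUO. It was at 1.31, 1.06 and 9.63 CPM in WT UUO, at 6.08, 0.706 and 52.8 CPM in contralateral and at 11.7, 0.901 and 10.5 CPM in healthy kidneys. Contralateral replicate 3 was the highest library of all, and it was also the highest for Ugt1a9 (8.43 CPM, against 0.393 and 0.0372 CPM in the other contralateral libraries) and Ugt1a8 (5.58 CPM, against 0.137 and 0 CPM). None of the 3 was called in any comparison without a covariate; for Ugt1a10 the difference was 2.33 ± 1.19 in Twist cKO UUO (adjusted p = 0.264) and 2.08 ± 1.18 in Myc cKO UUO (adjusted p = 0.273) against WT UUO. WT UUO replicate 3 and contralateral replicate 3 are the Cre-negative, floxed libraries of their groups, and the other WT UUO libraries held at most 1.31 CPM of Ugt1a10; line, genotype and individual cannot be told apart here. With Cre as a covariate, which within a group differs only in those 2 libraries, all 3 genes were called higher against WT UUO in both knockouts. Ugt1a10 then differed by 4.26 in Twist cKO UUO (adjusted p = 0.0228) and by 4.01 in Myc cKO UUO (adjusted p = 0.017), Ugt1a9 by 5.02 (adjusted p = 0.016) and 5.05 (adjusted p = 0.0088), and Ugt1a8 by 6.53 (adjusted p = 0.0113) and 6.35 (adjusted p = 0.007). That fit also called Ugt1a8 higher in WT UUO against healthy kidneys (2.79, adjusted p = 0.0455) and in Myc cKO UUO against Snail cKO UUO (4.12, adjusted p = 0.0388).

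**Figure D4:**
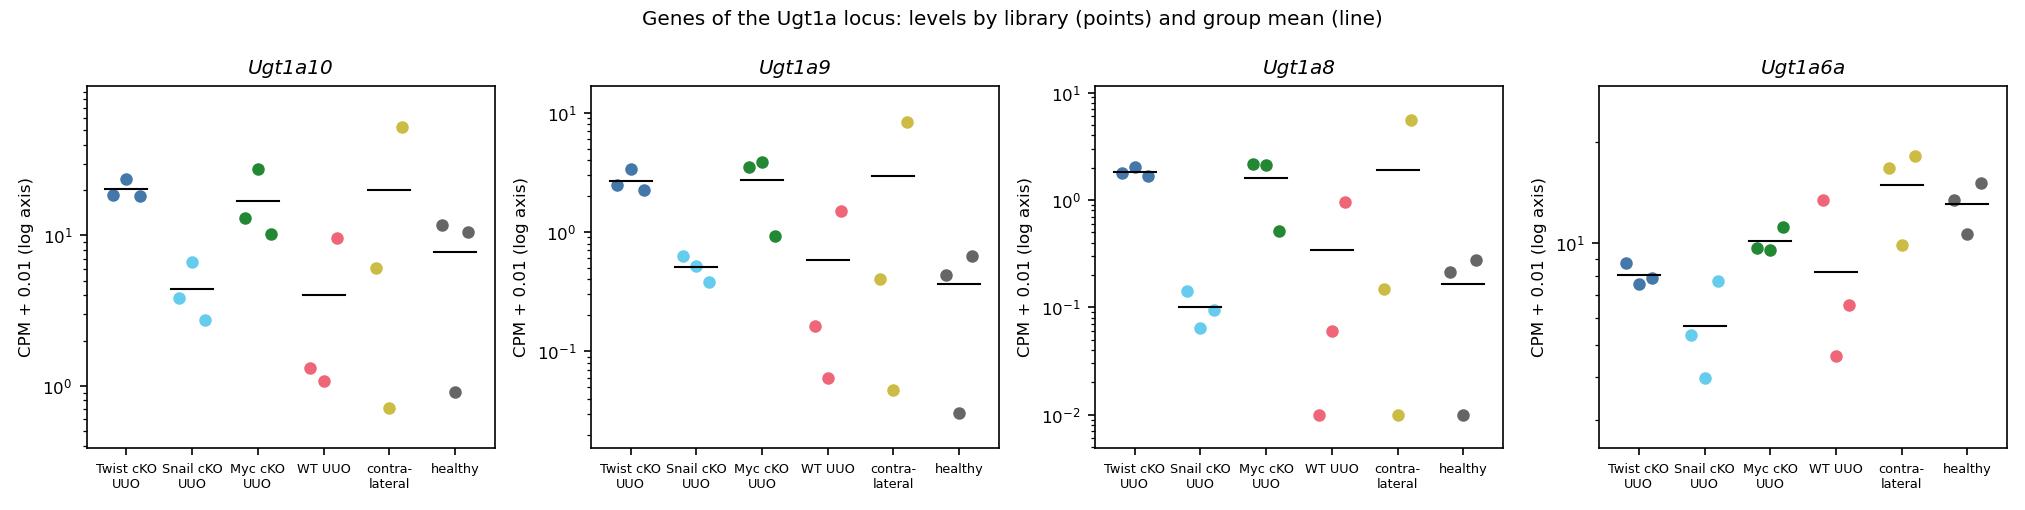
CPM plus 0.01 on a log axis (vertical) for 4 Ugt1a genes by group; points are libraries and lines group means. Contralateral replicate 3 is the highest point for Ugt1a10 (52.8 CPM), Ugt1a9 (8.43 CPM) and Ugt1a8 (5.58 CPM), while all points of Ugt1a6a lie between 3.98 and 18.05 CPM.

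The sequences before the starts of Ugt1a10 and Ugt1a9 are shown because their levels varied together by library. They were 82.8% identical over 227 aligned bases, and capitals mark the 39 that differ. Coordinates are GRCm38.p6 with RefSeq starts, at chr1:88055161-88055410, plus strand, and chr1:88070529-88070778, plus strand.
Ugt1a10: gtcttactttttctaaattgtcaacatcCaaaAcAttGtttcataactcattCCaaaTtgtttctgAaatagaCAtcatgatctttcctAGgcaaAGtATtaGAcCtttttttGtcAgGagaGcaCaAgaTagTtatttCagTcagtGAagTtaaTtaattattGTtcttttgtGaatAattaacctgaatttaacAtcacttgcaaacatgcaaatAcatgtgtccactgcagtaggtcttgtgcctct
Ugt1a9: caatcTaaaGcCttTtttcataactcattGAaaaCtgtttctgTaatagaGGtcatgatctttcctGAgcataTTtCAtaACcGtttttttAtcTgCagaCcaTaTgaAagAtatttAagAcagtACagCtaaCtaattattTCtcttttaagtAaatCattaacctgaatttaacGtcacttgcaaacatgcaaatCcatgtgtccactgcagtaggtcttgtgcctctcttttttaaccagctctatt

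In Twist cKO UUO, 5 of 42 members were higher than in WT UUO and none lower, where 2.97% of all genes were called higher and 2.31% lower; the median was 0.51 over the members and -0.01 over all genes. The 5 were 4 GST and Sult1d1. Gsta3 was at 23.9, 22.5 and 21.5 CPM in Twist cKO UUO and at 12.4, 11.3 and 7.62 CPM in WT UUO (1.12 ± 0.25, adjusted p = 0.0274). Gstz1 was at 53.6, 66.2 and 38.0 CPM in Twist cKO UUO and at 19.1, 29.6 and 25.0 CPM in WT UUO (1.10 ± 0.25, adjusted p = 0.0293). The groups did not overlap for either gene, and every Twist cKO UUO value of both lay below the healthy libraries. Gstt1 (0.78 ± 0.20, adjusted p = 0.039), Gstk1 (0.72 ± 0.19, adjusted p = 0.0394) and Sult1d1 (1.09 ± 0.29, adjusted p = 0.0443) completed the 5; Sult1d1 was at 257, 271 and 209 CPM in Twist cKO UUO and at 121, 108 and 118 CPM in WT UUO. These calls were not stable when a library was left out. Without Twist cKO UUO replicate 1 or 2, or without WT UUO replicate 1, none of the 42 was called, and in the fits without any other library of the 2 groups 2 or 3 were called. Gsta3 and Sult1d1 were called in 0 of these 6 fits, whichever library was left out. Their log2 fold changes there were 0.94 to 1.27 for Gsta3 and 1.01 to 1.21 for Sult1d1. Proximal tubule markers moved alongside, with 7 of 13 higher and sums of 2610 to 6219 CPM in Twist cKO UUO and 711 to 2785 CPM in WT UUO; their part was not tested.

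In Myc cKO UUO, 9 of 42 members were higher than in WT UUO and none lower, where 5.31% of all genes were called higher and 6.91% lower; the median was 0.68. They were 7 GST, Ugt3a2 and Sult1d1. Sult1d1 had the smallest p, at 186, 366 and 602 CPM in Myc cKO UUO and at 121, 108 and 118 CPM in WT UUO, which is 3.33-fold higher (1.74 ± 0.30, adjusted p = 0.00377). Its Myc cKO UUO libraries spread widely, and replicate 3 reached the lowest contralateral library. Gstm5, a mu-class enzyme, was at 55.7, 51.7 and 68.1 CPM in Myc cKO UUO and at 19.8, 36.7 and 21.7 CPM in WT UUO (1.17 ± 0.21, adjusted p = 0.00479). Gsta3 was at 19.7, 19.4 and 35.0 CPM in Myc cKO UUO (1.24 ± 0.25, adjusted p = 0.00763), and Gsta2 at 38.9, 73.8 and 61.5 CPM in Myc cKO UUO against 14.2, 14.8 and 18.9 CPM in WT UUO (1.86 ± 0.40, adjusted p = 0.0107). Every Myc cKO UUO library lay above every WT UUO library for these 4 genes. Gstk1 (0.86, adjusted p = 0.0104), Gstz1 (1.18, adjusted p = 0.0104), Gstt2 (1.22, adjusted p = 0.0228), Gstt1 (0.77, adjusted p = 0.0232) and Ugt3a2 (1.98, adjusted p = 0.0490) were also higher. Ugt3a2 was at 161, 154 and 254 CPM in Myc cKO UUO and at 13.8, 81.3 and 49.7 CPM in WT UUO. Gstz1 and Ugt3a2 were higher in Ddx3y libraries in every group, and Myc cKO UUO held 2 such libraries (replicates 1 and 3) against 1 (replicate 2) in WT UUO. Sult1d1, Gstm5 and Gsta3 were called in each of the 6 fits that left out a library, and Ugt3a2 in 1 of them, with an adjusted p of up to 0.167. Without Myc cKO UUO replicate 3 the count was 4, and without WT UUO replicate 1 it was 3. Of the proximal tubule markers 7 of 13 were higher, with sums of 3213 to 4872 CPM in Myc cKO UUO; their part was not tested.

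No member was called in Snail cKO UUO against WT UUO by edgeR, where 0.162% of all genes were called higher and 0.138% lower. At an unadjusted p under 0.05 there were 11 of 42 members, beside 3130 of all 21050 genes. DESeq2, which called 4.24% of the genes it tested, called 3 members higher (Gsta2, Gstm5 and Gstm7) and 1 lower (Gsto1). Gsta2 was at 36.3, 34.0 and 43.0 CPM in Snail cKO UUO and at 14.2, 14.8 and 18.9 CPM in WT UUO, without overlap (1.24 ± 0.40, adjusted p = 0.173). Gstm5 was at 43.6, 38.6 and 48.9 CPM in Snail cKO UUO and at 19.8, 36.7 and 21.7 CPM in WT UUO (0.75 ± 0.21, adjusted p = 0.126). Sult1d1 was at 179, 163 and 180 CPM in Snail cKO UUO, each above the WT UUO libraries. The median over the members was 0.21, and 1 of 13 proximal tubule markers was higher.

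**Figure D5:**
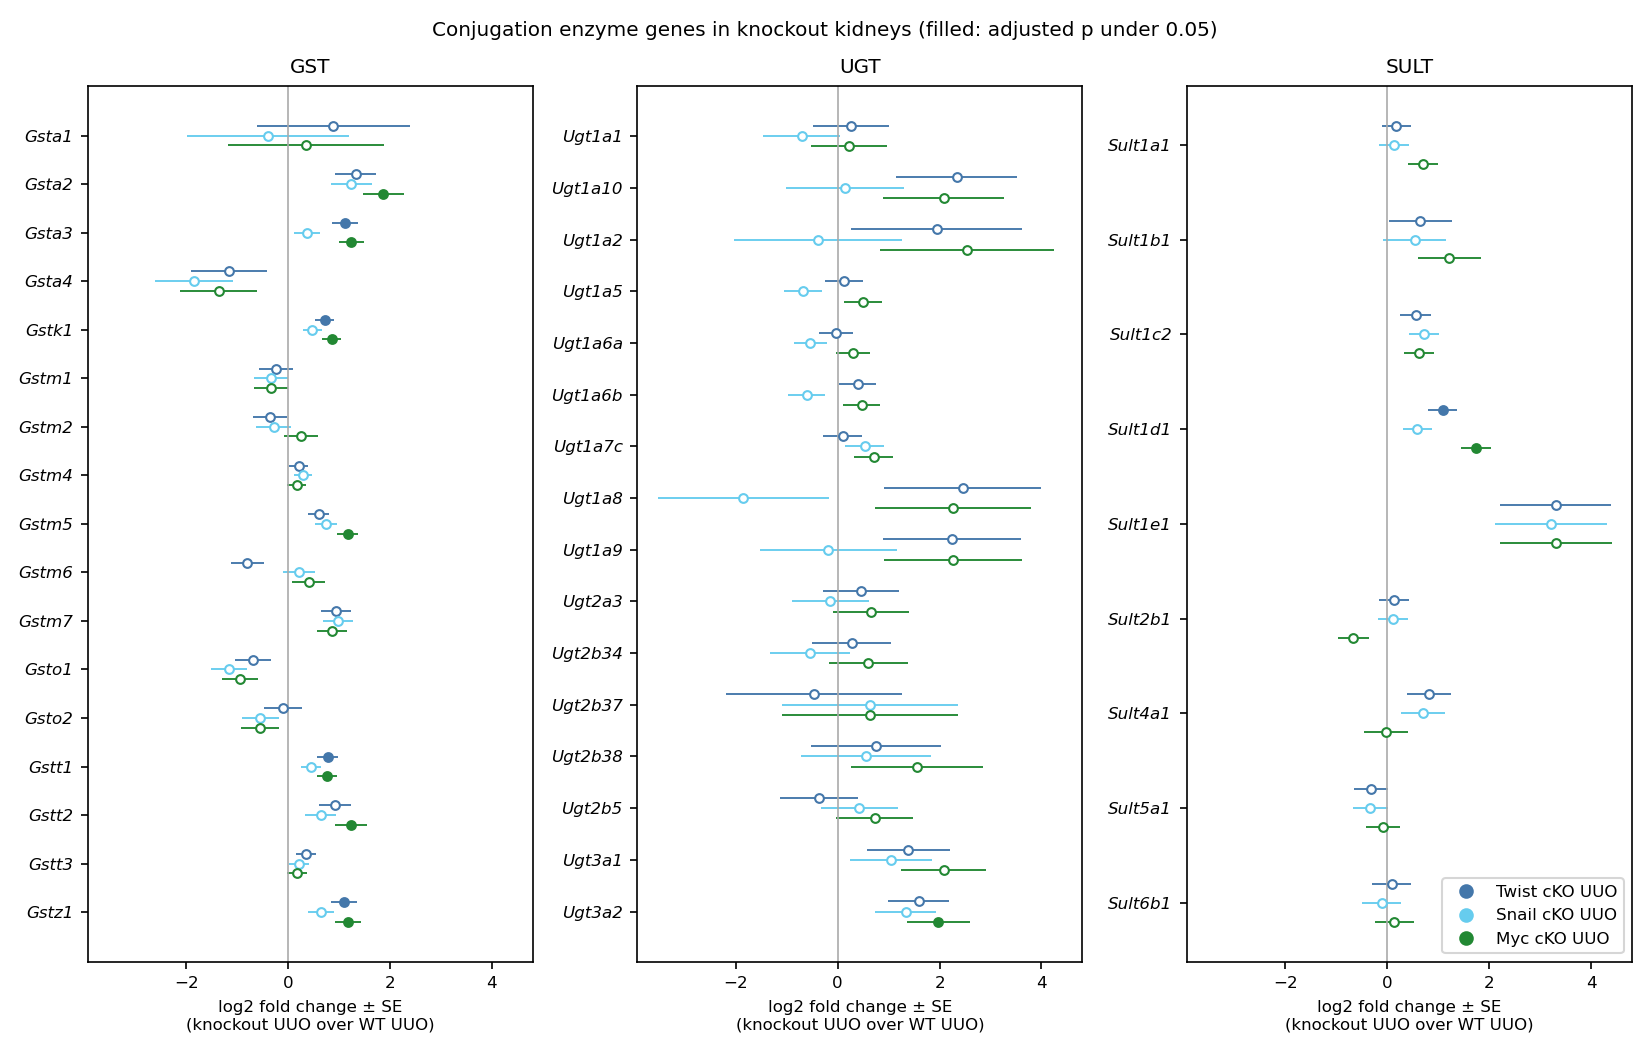
Log2 fold changes ± SE (horizontal axis) over WT UUO of the 42 tested members in Twist cKO UUO, Snail cKO UUO and Myc cKO UUO, in 1 panel per family; filled points have an edgeR adjusted p under 0.05. The filled points, all right of 0, are 5 for Twist cKO UUO and 9 for Myc cKO UUO, and all 3 colours share the WT UUO libraries.

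All knockout comparisons share the WT UUO libraries, so the knockouts were also set against each other. No member was called by edgeR between any pair, where 2.99% of all genes were called for Myc against Twist cKO UUO, 2.45% for Myc against Snail cKO UUO and 0.171% for Snail against Twist cKO UUO. At an unadjusted p under 0.05 there were 4, 7 and 5 of 42 members for these pairs, beside 3698, 3609 and 1373 of all 21050 genes. DESeq2 called 1 (Gstm6), 4 (Gsta3, Sult1d1, Ugt1a5 and Ugt1a6b, each higher in Myc cKO UUO) and 0, where it called 8.90%, 7.63% and 0.644% of the genes it tested. Sult1d1 was nearest to the threshold for Myc cKO UUO against Snail cKO UUO (1.15 ± 0.29, adjusted p = 0.0524), and Gstm6 for Myc cKO UUO against Twist cKO UUO (1.20 ± 0.32, adjusted p = 0.0587). Gstm6 was at 1.37, 1.40 and 0.851 CPM in Myc cKO UUO and at 0.430, 0.621 and 0.526 CPM in Twist cKO UUO, without overlap. The length-scaled SULT sum of the Twist knockout was 148 ± 19.2, that of the Snail knockout 122 ± 8.46 and that of the Myc knockout 210 ± 95.9 CPM per kb, all above the 81.9 ± 6.92 of WT UUO and below the 514 ± 119 of healthy kidneys. The GST sum was 260 ± 24.8, 230 ± 38.5 and 287 ± 48.9 CPM per kb in the same order of knockouts. In WT UUO it was 259 ± 132, with replicate 1 at 409 and the others at 201 and 166 CPM per kb. All knockout libraries lay between replicate 1 and the other WT UUO libraries. The UGT sum was 127 ± 61.8, 117 ± 47.3 and 189 ± 38.6 CPM per kb, against 72.4 ± 38.1 in WT UUO. In each of these groups the Ddx3y libraries had the higher UGT sums. They stood at 152 and 135 against 63.0 CPM per kb in Snail cKO UUO, and at 116 against 44.7 and 56.6 in WT UUO. Ddx3y libraries numbered 2 in the Snail and the Myc knockouts and 1 in WT UUO, and the part of sex in these sums was not tested.

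Genes of supply, export and regulation were also called in Twist and Myc cKO UUO against the shared WT UUO libraries. In Twist cKO UUO, 3 of 14 glutathione genes, 2 of 7 mercapturate genes, 2 of 8 UDP-glucuronate genes, 2 of 9 transporters and 3 of 14 regulators were higher, with none lower in these lists. They included Acy1 (1.75, adjusted p = 0.0193) and Slc35d1, the UDP-glucuronate transporter of the endoplasmic reticulum (0.67, adjusted p = 0.025). Anpep, higher too, counts in both the glutathione and the mercapturate list. In Myc cKO UUO, 4 of 9 PAPS and sulfate genes were higher, among them the sulfate transporter Slc13a1 (1.27, adjusted p = 0.0088), and so were 3 of 8 UDP-glucuronate genes, 3 of 9 transporters, 1 glutathione gene, 1 mercapturate gene and 4 of 14 regulators, with Hnf4a at 1.22 (adjusted p = 0.0241). There 2 regulators, Ahr (-0.85, adjusted p = 0.0418) and Keap1 (-0.30, adjusted p = 0.0494), were lower. Of the 10 NRF2 target enzymes 2 were higher and 1 lower in each of these knockouts. Osgin1 (1.10, adjusted p = 0.0317) and Gclm (0.75, adjusted p = 0.042) were higher in Twist cKO UUO, and Gclm (0.65, adjusted p = 0.044) and Srxn1, the sulfiredoxin (0.46, adjusted p = 0.044), in Myc cKO UUO. Hmox1, the haem oxygenase, was the lower one, at -2.31 for the Twist knockout (adjusted p = 0.0258) and -1.84 for the Myc knockout (adjusted p = 0.0285). None of these lists held a called gene in Snail cKO UUO. There 0.162% of all genes were called higher and 0.138% lower, so empty lists do not set these genes apart.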

How the data were processed

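Per the labels, RNA from part of each frozen kidney was made into stranded whole-transcriptome libraries and read as 2 reads of 75 bases. The authors deposited raw counts per gene symbol; HTSeq, bcl2fastq 1.8.4, mm10 and DESeq2 are named in the submitters' processing notes, and which aligner, gene models and strandedness option served is not given in the sources used here. Of 24 columns, 18 matched a sample by name and the other 6 entered no step. The test was edgeR's quasi-likelihood F test (edgeR 4.0.16 under R 4.3.3; filterByExpr, TMM, robust; a single model of the 18 libraries, leaving 12 residual degrees of freedom), two-sided, with Benjamini-Hochberg adjustment over 21050 genes. Unless another tool is named, every adjusted p is from that fit. The steps were tested on simulated data. Lengths and positions are those of GENCODE M21, by symbol. Upstream sequences are RefSeq GRCm38.p6, and alignments were made with Biopython. Members and gene lists were chosen with earlier results of these data known. Named are, per family and comparison, up to 4 called members per direction with the smallest p, the 3 members with the highest length-scaled level in healthy and in WT UUO kidneys, and up to 2 called genes per direction of each other list; further members were named after their values were seen, and some listed genes are not reported here by name. Alternatives were DESeq2 1.42.0, other size factors, no filter, no mitochondrially encoded genes, sex, Cre or (added after seeing the data) both as covariates, fits to just the groups at issue, and removal of each library in turn. Replicates of a group differed by more than sampling noise in every pair. The precision of low counts is limited by counting error.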

Additional observations from a re-analysis of the deposited data

Results flagged for a closer look

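In 3 cases the library with Ddx3y above Xist (1 of the 3 in each of these groups) and the 2 libraries with the reverse moved in opposite directions under the same contrast, with both Xist libraries of WT UUO beyond both of those it was set against; the difference between them was not tested, since 1 library stands on one side. Ugt2b37 in the Ddx3y library was at 79.8 CPM in WT UUO and 222 CPM in healthy kidney, a ratio of 0.36, while the mean of the Xist libraries was 20.4 CPM in WT UUO and 1.94 CPM in healthy kidneys. Against contralateral kidney the ratio of Ugt2b37 in the Ddx3y library was 0.538 (79.8 CPM in WT UUO and 148 CPM in contralateral), while the means of the Xist libraries were 20.4 CPM in WT UUO and 1.56 CPM in contralateral kidneys. Ugt1a10 in the Ddx3y library was at 1.06 CPM in WT UUO and 0.901 CPM in healthy kidney, a ratio of 1.18 that rests on low levels, while the means of the Xist libraries were 5.47 CPM in WT UUO and 11.1 CPM in healthy kidneys.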

How the results depend on the processing

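The counts of members lower and higher than in healthy kidneys were 17 to 22 and 5 to 6 when any 1 library was left out, and against contralateral kidneys 16 to 22 and 4 to 5. No called member changed sign under any alternative run. Upper-quartile scaling moved the median of all genes in WT UUO from 0.05 to 0.16 against healthy and from 0.06 to 0.20 against contralateral kidneys. The knockout counts moved more, except that without mitochondrially encoded genes 5 members were higher for the Twist knockout and 9 for the Myc knockout, as with them. For Twist cKO UUO against WT UUO, 5 higher became 8 with DESeq2, 8 with the sex covariate, 7 with the Cre covariate (Sult1d1 lost, Ugt1a8, Ugt1a9 and Ugt1a10 gained), and 0 to 3 with 1 library left out. For Myc cKO UUO, 9 higher became 0 with only the 2 groups compared, 11 with the Cre covariate (Ugt3a2 lost, Ugt1a8, Ugt1a9 and Ugt1a10 gained) and 3 to 10 with 1 library left out, and DESeq2 called 1 lower. For Snail cKO UUO, DESeq2 called 3 higher and 1 lower, and leaving out a library gave 0 to 1 higher. For contralateral against healthy kidneys DESeq2 called 1 higher. Between Myc and Twist cKO UUO, DESeq2 called 1 and leaving out a library gave 0 to 1. Between Myc and Snail cKO UUO, DESeq2 called 4, the Cre covariate 1, upper-quartile scaling 1, and leaving out a library gave 0 to 1. Between Snail and Twist cKO UUO, fitting only the 2 groups called 2. The cause of these changes was not tested, except that leaving out a library leaves fewer samples. No paired analysis was run, because the labels carry no replicate numbers and tie no kidney to an animal. The test against contralateral kidneys thus treated all kidneys as independent, also where 2 kidneys may have come from 1 animal. Contralateral and WT UUO kidneys can be matched by sex reading and Cre genotype. With both as covariates, an alternative chosen after seeing the data, 23 members were lower and 6 higher in WT UUO than in contralateral kidneys, 10 were higher than in WT UUO for the Twist knockout, 1 for the Snail knockout and 15 for the Myc knockout, and 1 was called between Myc and Snail cKO UUO. Apart from the DESeq2 shares stated above, the shares of all genes called by the alternative runs are not given here. A changed count of members in such a run therefore does not show that members moved more than other genes. Members under about 10 counts a library are limited by depth.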
